A study of Mus musculus with 24 samples.

Results

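The mitochondrial ribosomal proteins were taken as every gene whose symbol starts with Mrpl or Mrps followed by a digit, leaving out pseudogene symbols, which gave 77 of the 24421 genes in the count table. They comprised 48 Mrpl and 29 Mrps genes. RNA was measured by sequencing of polyadenylated RNA from the medial liver lobe of C57BL/6 mice, in 24 libraries. Mice received 1 injection of vehicle (0.1% ethanol) or of MitoCDNB at 5 mg/kg, and liver was taken 1 h or 4 h later, with 6 mice in each of the 4 groups: vehicle 1 h, MitoCDNB 1 h, vehicle 4 h and MitoCDNB 4 h. MitoCDNB is chlorodinitrobenzene linked to triphenylphosphonium, a lipophilic cation that gathers in mitochondria, and was made to deplete mitochondrial glutathione and to inhibit the thioredoxin system there. The labels name no genetic change, and neither the sex nor the age of the mice.

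The mitochondrial ribosome translates the few messenger RNAs that mitochondrial DNA encodes, all of them for subunits of the respiratory chain and the ATP synthase. Its RNA comes from mitochondrial DNA, whereas all of its proteins are encoded in the nucleus, made in the cytosol and imported. The mammalian particle is rich in protein: many of its proteins have a counterpart in the bacterial ribosome, and the others do not. Of the 77 members, 48 have a bacterial counterpart and 29 have none. Liver is rich in mitochondria, and its respiratory chain depends on this translation.

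The promoters of 68 of the 77 members were matched by symbol in RefSeq sequences of build GRCm38.p6, from 250 bases before to 50 bases after the start. They were searched on both strands for motifs named for factors that regulate genes for mitochondria. The NRF1 motif (GCGCA, then any base, then GCGC) was found in 13 members (19.1%), against 4.78% of all 27025 promoters and 9.98% of the 10343 promoters of tested genes. The ETS motif (CCGGAAG), which GABP binds, was found in 24 members (35.3%), against 9.12% of all promoters and 17.3% of those of tested genes. The YY1 motif (AAGATGGCG) was found in 8 members (11.8%), against 1.49% and 3.07%. The letters of these 3 motifs do not contain each other, and 39 of 68 members held at least 1 of them, 6 of them at least 2 kinds. Of the other motifs, SP and KLF (GGGCGG) was in 34 of 68 members and in 62.2% of tested genes, NF-Y (CCAAT) in 39.7% of members and 38.7% of tested genes, and the TATA box (TATAAA) in 5.88% and 7.53%. The ERR motif (TCAAGGTCA) was in none of the 68, and in 0.309% of tested genes. Member promoters had a median of 21 CpG dinucleotides, against 20 among tested genes. These shares are descriptions of sequence, and a match is not a bound site.

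The 3 member promoters whose upstream stretch held more than 1 match are shown first, to let the motifs be seen in place, with the NRF1 and ETS matches in capitals. The stretches are the bases upstream of the start that no annotated exon covers, on the strand of the gene, 5′ to 3′. Mrpl17 is at chr7:105811100-105811337 (minus strand) and holds 1 ETS and 1 NRF1 match, Mrpl45 at chr11:97315466-97315715 (plus strand) holds 2 NRF1 matches, and Mrpl43 at chr19:45006443-45006557 (minus strand) holds 2 ETS matches. The last stretch lies between exons of Twnk, the mitochondrial DNA helicase, whose start lies inside Mrpl43 on the opposite strand. Below them is the stretch of Mrpl49, at chr19:6057786-6057843 (minus strand), shown because Mrpl49 was the member called at 1 h. It is the whole gap between the start of Mrpl49 and that of Fau, which encodes a fusion of a ubiquitin-like protein with a cytosolic ribosomal protein, and none of the 3 motifs is in it.
Mrpl17: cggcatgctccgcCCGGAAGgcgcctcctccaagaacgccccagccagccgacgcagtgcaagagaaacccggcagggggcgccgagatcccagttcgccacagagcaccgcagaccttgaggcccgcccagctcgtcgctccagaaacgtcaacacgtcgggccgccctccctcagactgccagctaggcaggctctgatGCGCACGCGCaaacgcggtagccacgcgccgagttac
Mrpl45: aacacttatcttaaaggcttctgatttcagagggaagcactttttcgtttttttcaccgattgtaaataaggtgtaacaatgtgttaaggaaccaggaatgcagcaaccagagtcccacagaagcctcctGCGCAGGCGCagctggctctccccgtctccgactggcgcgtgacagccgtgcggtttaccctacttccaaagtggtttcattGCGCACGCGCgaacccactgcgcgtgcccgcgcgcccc
Mrpl43: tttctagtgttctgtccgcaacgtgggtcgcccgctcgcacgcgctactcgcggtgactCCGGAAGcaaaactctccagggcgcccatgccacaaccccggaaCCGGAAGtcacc
Mrpl49: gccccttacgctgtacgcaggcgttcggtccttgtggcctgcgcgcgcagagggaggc

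Many members share their start with another gene. In GENCODE M21 models (build GRCm38), 33 of 77 members (42.9%) had the start of another gene within 1000 bp on the opposite strand, against 10.9% of all protein-coding genes and 15.6% of the tested protein-coding genes. The pair Mrpl46 and Mrps11, large and small subunit proteins, starts head to head. Of the partners, 27 were tested genes outside the family, and 1 of them, Apba3 (named after its value was seen), was called at 1 h and 0 at 4 h, beside 6.57% and 0.824% of all genes. Between 1 h and 4 h in MitoCDNB mice 8 of the 27 partners were higher and 4 lower, beside 28.5% of all genes called. Members lay on 17 chromosomes, with 10 on chromosome 11. Exons of 32 members overlapped those of another gene, and 23 of these overlapped a gene that is itself in the table. The library kit does not mark strand by its name, and the read assignment is not given in the sources used here. Therefore reads in such overlaps cannot be told apart.

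All 77 members passed the filter on low counts, and the lowest count of any member in any library was 110. Library totals ranged from 25132737 to 37231025 counts. Levels are given as counts per 1000000 counts of the scaled library (CPM). In bulk tissue, fewer cells of a type and less RNA per cell cannot be told apart. Hepatocyte markers were high in every library (46520 to 72080 CPM summed over 10 genes). At 1 h the summed neutrophil markers (8 of 8 in the table, none at 0 in either group) were 1.72 to 6.46 CPM in vehicle and 7.20 to 14.95 CPM in MitoCDNB libraries, and the 2 groups did not overlap. Other markers called higher at 1 h were 1 of 5 tested for cholangiocytes, 1 of 9 for sinusoidal endothelial cells and 1 of 2 tested for T and natural killer cells. Of all genes, 2.7% were called higher at 1 h. At 4 h, 3 of 9 sinusoidal endothelial markers were called lower and 1 higher, and 1 of 10 hepatocyte markers higher, beside 0.824% of all genes. The endothelial markers summed to 286.4 to 347.9 CPM in vehicle and 269.8 to 315 CPM in MitoCDNB libraries of 4 h. The part of these markers in the results was not tested. At 1 h, replicates 1 to 3 and 4 to 6 formed 2 sets, with summed brain markers of 17.1 to 20.4 CPM and 20.97 to 26.6 CPM, while the members summed to 1450 to 1552 CPM in the first set and 1453 to 1553 CPM in the second. On the second principal component of the 500 most variable genes, vehicle replicate 1 of 4 h lay at -12.3 against 1.77 to 16.7 for the rest of its group, and MitoCDNB replicate 2 of 4 h lay at -17.4 against -11.6 to 2.42. Fits without these sets or libraries are given for a part of the results only. A call printed without such a fit is not shown to hold without them.

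Levels spread widely between members. Per kilobase of the longest principal transcript in GENCODE M21, the members ranged over 29.4-fold, with a median of 14.4 CPM per kb. The 5 highest were Mrpl52 (51.3 CPM per kb, mean over 24 libraries), Mrpl14 (46.8), Mrps21 (45.2), Mrpl12 (43.3) and Mrps34 (41.4). The 5 lowest were Mrps26 (3.01), Mrpl35 (2.88), Mrps35 (2.78), Mrpl19 (1.79) and Mrpl47 (1.74). The order depends on the length used: with the length of all exons together, Mrpl12 ranked 1 of 77 and Mrpl52 ranked 11, whereas Mrpl47 was the lowest by both. The 2 highest did not differ beyond their spread: in the vehicle 1 h group Mrpl52 was 50.7 ± 3.66 and Mrpl14 49.1 ± 4.13 CPM per kb (SD, n = 6).

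Among members with a known role, the levels per kb were as follows. Mrpl12, the counterpart of the bacterial stalk protein and a binding partner of the mitochondrial RNA polymerase, was at 41.7 ± 2.40, 42.4 ± 1.63, 45.2 ± 3.06 and 44.0 ± 2.11 CPM per kb in vehicle 1 h, MitoCDNB 1 h, vehicle 4 h and MitoCDNB 4 h (SD, n = 6). Mrpl45, which ties the large subunit to the inner membrane at the tunnel exit, was lower, at 4.93 ± 0.232, 4.83 ± 0.223, 5.09 ± 0.199 and 4.97 ± 0.357. Mrpl23 and Mrpl24, which line the tunnel exit, averaged 27.3 and 29.5 CPM per kb over all libraries. Mrpl11 of the stalk base averaged 4.76. Mrps12, at the decoding centre, averaged 22.3, and the 3 proteins of the S18 kind averaged 16.7 (Mrps18a, whose protein sits in the large subunit), 22.7 (Mrps18b) and 24.6 (Mrps18c). Mrps36, now counted as a subunit of the 2-oxoglutarate dehydrogenase complex, averaged 9.54. Genes in which variants cause mitochondrial disease averaged 3.66 (Mrpl3), 7.09 (Mrpl44), 4.69 (Mrps16), 10.7 (Mrps22), 8.79 (Mrps2), 19.2 (Mrps7) and 41.4 (Mrps34). Mrpl39 averaged 9.84, Mrpl41 19.3, Mrps27, a pentatricopeptide repeat protein, 8.86, and Mrps30 7.19 CPM per kb. One protein of the large subunit, Mrpl58, is listed as Ict1, which the symbol rule does not take, and was at 16.2 ± 0.723 CPM (SD, n = 6) in the vehicle 1 h group.

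On scaled library sizes, the summed level of the family was similar in the 4 groups. Before scaling, members made up from 0.121% (MitoCDNB 1 h replicate 4) to 0.192% (MitoCDNB 1 h replicate 6) of the counts of a library. Major urinary proteins made up 36.3% and 11.1% of the counts of these 2 libraries. Members summed to 1499 ± 37.2 CPM in vehicle 1 h, 1504 ± 37.8 in MitoCDNB 1 h, 1542 ± 115 in vehicle 4 h and 1539 ± 57.3 in MitoCDNB 4 h (SD, n = 6). The groups overlapped throughout, and the spread was widest in vehicle 4 h, from 1374 CPM in replicate 4 to 1704 CPM in replicate 6. Replicates 4 and 6 were also the lowest and highest vehicle 4 h libraries for the summed cytosolic ribosomal proteins. The same numbers were lowest and highest in MitoCDNB 4 h. Members there summed to 1479.9 CPM in replicate 4, close to 1480.3 CPM in replicate 2, and to 1626.5 CPM in replicate 6. Cytosolic ribosomal proteins there summed to 7899 CPM in replicate 4 and 9572 CPM in replicate 6. The biological coefficient of variation (the spread between libraries of a group beyond counting noise) had a median of 0.0956 over members, against 0.140 over all genes tested, and 76 of 77 members lay under that median. Mrpl38 was the exception, at 0.184, and Mrpl45 was the lowest, at 0.0686. The median was also below 0.140 for cytosolic ribosomal proteins (0.111) and for respiratory chain and ATP synthase subunits (0.112). The genes tested were not matched to the members by level.

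**Figure D1:**
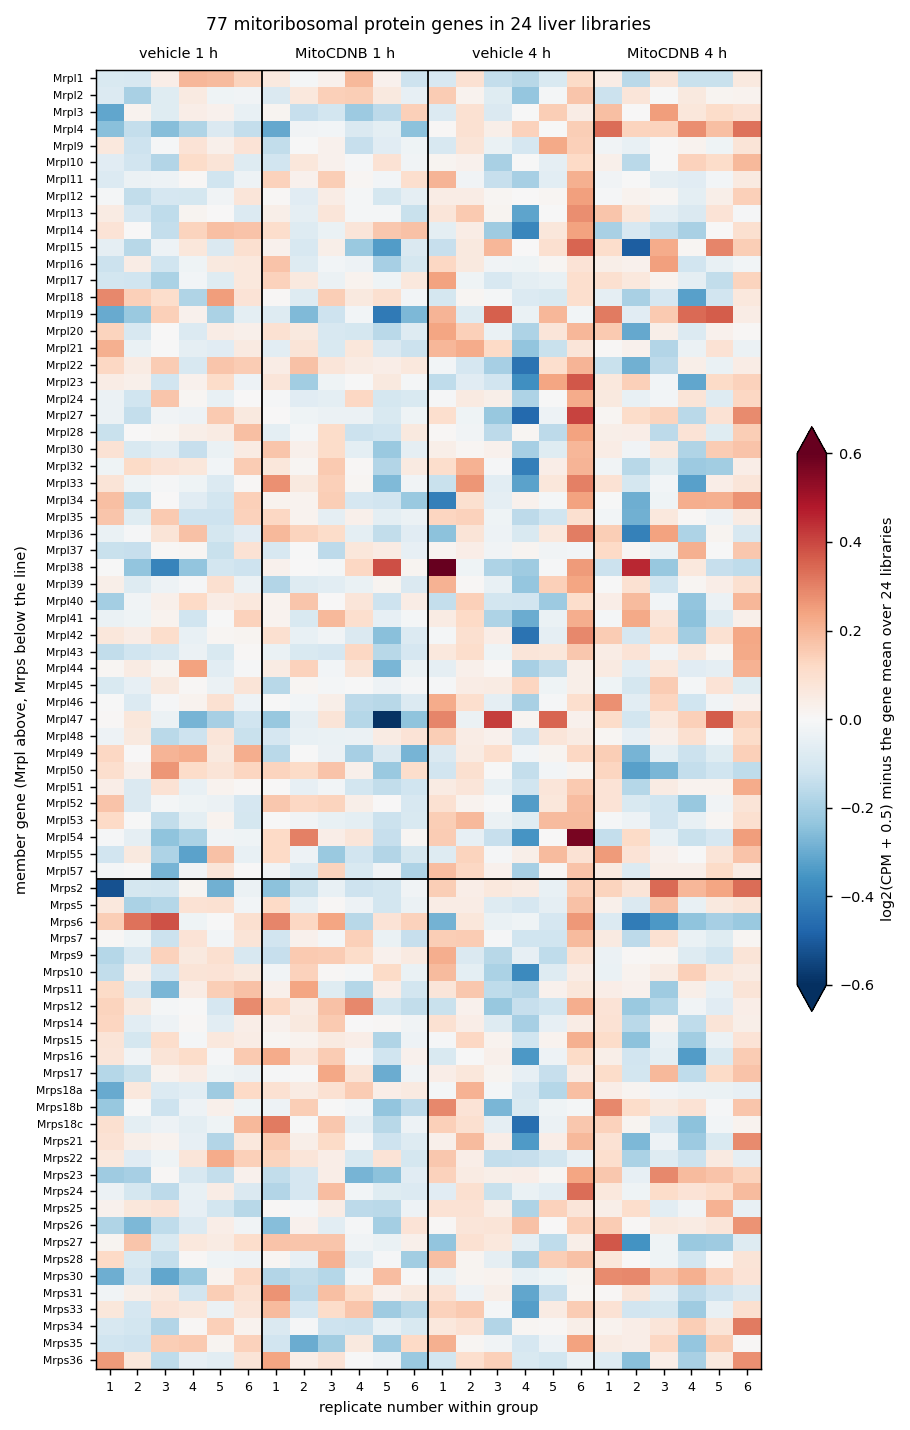
Each row is 1 of 77 members, each column 1 of 24 libraries, and the colour is log2(CPM + 0.5) minus the mean of the gene over the libraries (scale -0.6 to 0.6). Blocks of colour follow single libraries, such as vehicle 4 h replicates 4 (low) and 6 (high), more than groups, and 1 value, Mrpl38 in vehicle 4 h replicate 1, lies beyond the scale.

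**Figure D2:**
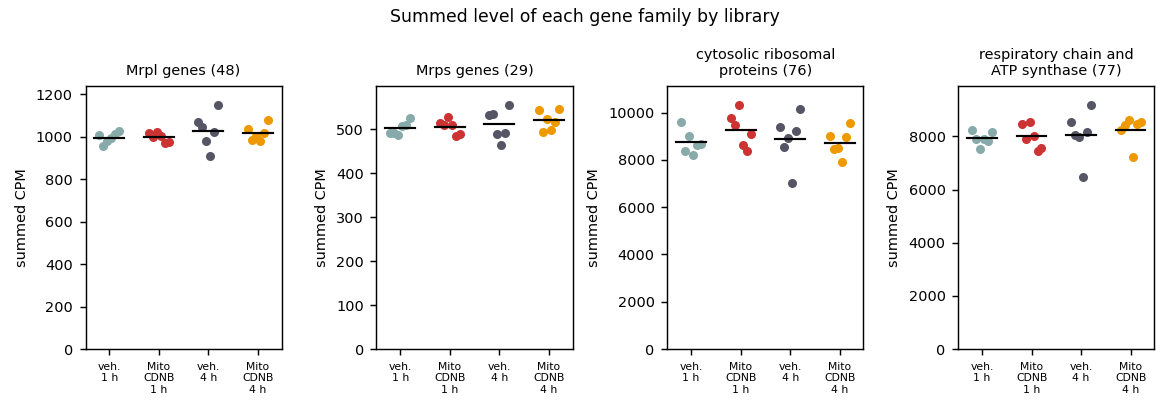
Points are libraries and lines are group means of the summed CPM of 48 Mrpl genes, 29 Mrps genes, 76 cytosolic ribosomal proteins and 77 respiratory chain and ATP synthase subunits, on axes that start at 0. Within each panel the 4 groups overlap.

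At 1 h, MitoCDNB changed 1 of 77 members (1.3%), whereas 6.57% of all genes tested were called (edgeR quasi-likelihood F test, Benjamini-Hochberg adjusted p under 0.05 over 13833 genes). The call was Mrpl49, which was lower, as were 3.87% of all genes, and no member was higher. At an unadjusted p under 0.05 there were 2 members (Mrpl49 lower, Mrps18a higher), against 17.7% of all genes. The median log2 fold change of members was -0.0069, beside 0.0025 for all genes, and the median absolute log2 fold change was 0.0377, beside 0.116. The 95% interval lay within 1.5-fold in either direction for 76 of 77 members (98.7%), beside 68.5% of all genes, which were not matched to the members by level. The same held for 76 of 76 cytosolic ribosomal proteins and for 74 of 77 respiratory chain and ATP synthase subunits. The 48 Mrpl genes had a median of -0.0250 and the 29 Mrps genes 0.0097. The 48 members with a bacterial counterpart had a median of -0.0058 and the 29 without one -0.0215.

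Mrpl49, a large subunit protein without a bacterial counterpart, is encoded at chr19:6053622-6057785 (GRCm38, minus strand). Its level was 20.8, 19.1, 21.97, 22.2, 19.8 and 22.2 CPM in the 6 vehicle libraries of 1 h and 16.9, 18.98, 18.6, 16.5, 17.9 and 15.6 CPM in the MitoCDNB libraries. All 6 MitoCDNB libraries were below all 6 vehicle libraries, though the nearest values (18.98 and 19.1 CPM) nearly met; ranges lay apart in this direction for 2.54% of all genes. The log2 fold change was -0.27 (SE 0.0712, 95% interval -0.418 to -0.125, adjusted p = 0.0191, edgeR). At 4 h the level was 17.9, 19.7, 20.4, 18.8, 19.3 and 20.7 CPM with vehicle and 21.1, 15.6, 18.3, 17.3, 18.1 and 21.03 CPM with MitoCDNB. These groups overlapped (log2 fold change -0.07, adjusted p = 0.731, edgeR), and the 4 h effect minus the 1 h effect was 0.20 (adjusted p = 0.306, edgeR).

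The 1 h call of Mrpl49 was kept in 11 of 12 fits that each left out 1 library of 1 h, with log2 fold changes from -0.2975 to -0.241. It was lost without MitoCDNB 1 h replicate 6 (adjusted p = 0.0555, edgeR), and with scaling by total counts alone (log2 fold change -0.35, adjusted p = 0.194). Neither 1 h set alone gave a call: the log2 fold change was -0.18 in replicates 1 to 3 (edgeR adjusted p = 0.530) and -0.36 in replicates 4 to 6 (0.1005). Exons of Mrpl49 share 91 of 1876 bp with Syvn1 on the opposite strand, an E3 ubiquitin ligase of the endoplasmic reticulum. Syvn1 was 79.2, 95.2, 80.9, 106, 69.6 and 75.7 CPM in vehicle and 61.7, 62.5, 59.0, 49.1, 47.1 and 47.2 CPM in MitoCDNB libraries of 1 h, lower in every MitoCDNB library (log2 fold change -0.63, adjusted p = 0.00785, edgeR). Its part in the Mrpl49 values was not tested. In vehicle mice from 1 h to 4 h, Syvn1 fell by 0.58 on the log2 scale (adjusted p = 0.0210, edgeR), while Mrpl49 gave -0.11 (adjusted p = 0.422). Fau, across the shared start, gave a 1 h log2 fold change of 0.13 (adjusted p = 0.312, edgeR).

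Mrpl38 had the largest positive 1 h fold change of the family without passing the test. This large subunit protein without a bacterial counterpart was at 53.2, 45.2, 40.4, 45.2, 49.4 and 48.9 CPM in vehicle 1 h and at 54.3, 53.4, 52.9, 58.3, 69.9 and 53.9 CPM in MitoCDNB 1 h. The groups overlapped only at 52.9 against 53.2 CPM. At 4 h it was 98.8, 52.4, 46.8, 45.995, 53.1 and 63.8 CPM with vehicle and 48.7, 73.1, 45.5, 55.7, 48.4 and 47.9 CPM with MitoCDNB. The 2 highest values at 4 h were those of the 2 libraries that stood apart. The 1 h log2 fold change was 0.28 (SE 0.149, adjusted p = 0.351, edgeR) when the spread was shared with the 4 h libraries. It was called without those 2 libraries (adjusted p = 0.0412) and in a fit of the 1 h libraries alone (adjusted p = 0.03999), at the same fold change.

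Other members at the ends of the 1 h list did not pass the test. The next largest positive log2 fold changes were those of Mrpl54 (0.17), Mrps18a (0.16), Mrpl11 (0.12), Mrpl17 (0.11), Mrpl2 (0.10), Mrps30 (0.08) and Mrpl52 (0.08), with adjusted p from 0.248 to 0.705. The next largest negative ones were those of Mrps35 (-0.15), Mrpl47 (-0.11), Mrpl19 (-0.10), Mrpl42 (-0.10), Mrpl18 (-0.09), Mrpl9 (-0.08) and Mrpl15 (-0.08), with adjusted p from 0.428 to 0.778.

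At 4 h no member was called by edgeR, beside 0.824% of all genes, and neither DESeq2 (2.52% of all genes) nor limma-voom (1.64%) called any. At an unadjusted p under 0.05 there were 3 members higher and 1 lower, that is 5.19% beside 14.3% of all genes. All 77 intervals lay within 1.5-fold. The median log2 fold change was -0.0052, beside -0.0044 for all genes.

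**Figure D3:**
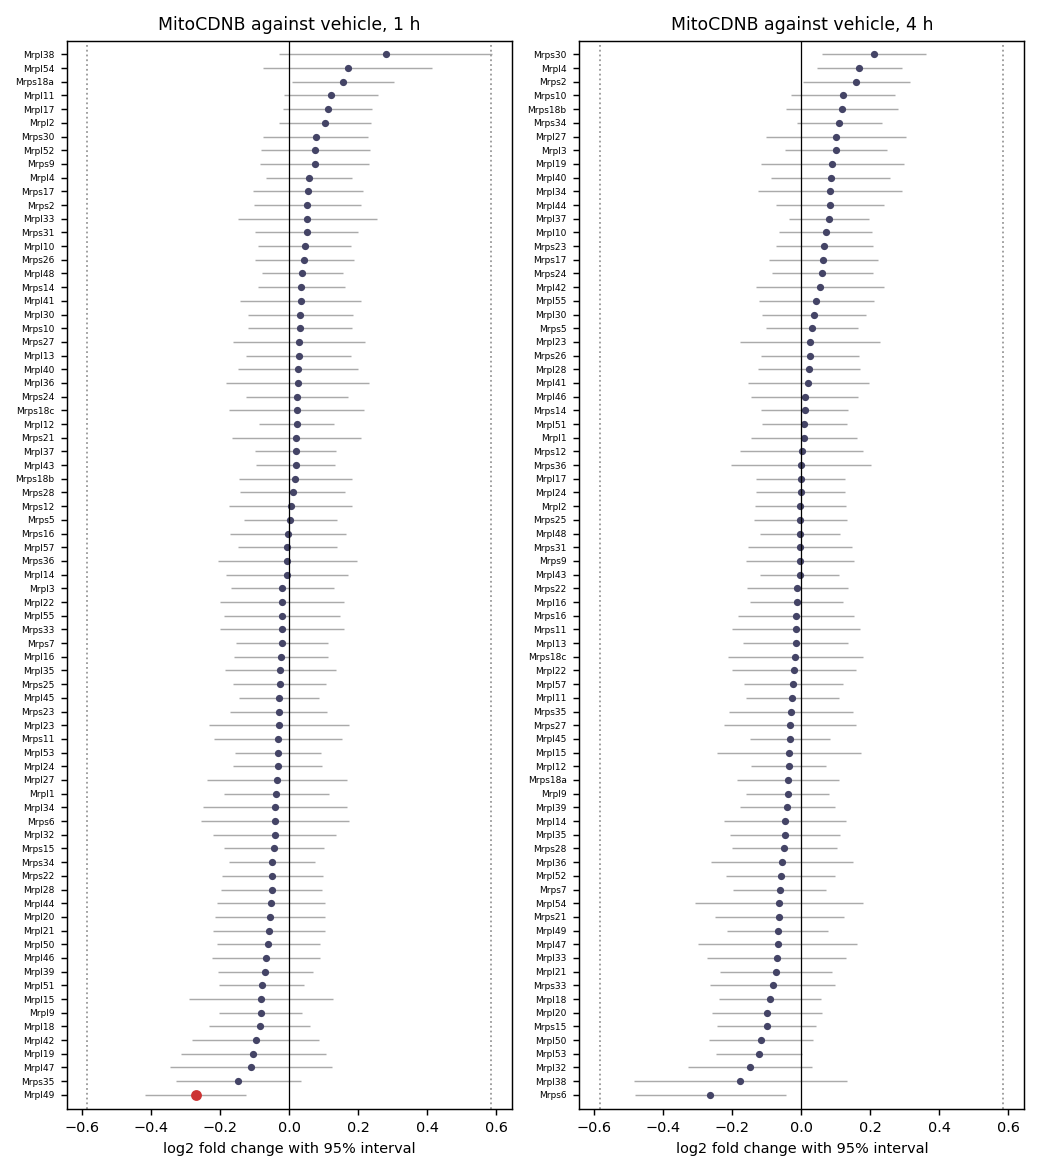
Points are log2 fold changes of MitoCDNB against vehicle (6 libraries a group) for each of 77 members at 1 h and 4 h, sorted by size, with 95% intervals; dotted lines mark 1.5-fold. Mrpl49 (larger red point, 1 h) is the single member called, and only the interval of Mrpl38 at 1 h reaches past a dotted line.

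The members with the smallest p at 4 h were Mrps30, Mrpl4, Mrps6 and Mrps2. Mrps30, whose protein sits in the large subunit despite its name, was at 23.05, 23.99, 24.1, 22.997, 23.3 and 23.97 CPM with vehicle and at 28.96, 29.1, 26.7, 27.6, 26.2 and 25.1 CPM with MitoCDNB. Every MitoCDNB library was above every vehicle library, which held for 0.578% of all genes, but the fitted log2 fold change of 0.21 (SE 0.0735, adjusted p = 0.165, edgeR) did not pass the test. In the 1 h groups Mrps30 ranged more widely, from 19.03 to 25.9 CPM with vehicle and from 20.96 to 27.03 CPM with MitoCDNB. The log2 fold changes at 4 h were 0.17 for Mrpl4 (adjusted p = 0.176, edgeR), 0.16 for Mrps2 (0.329) and -0.26 for Mrps6 (0.237). The remaining ends of the 4 h list were Mrps10 (0.12), Mrps18b (0.12), Mrps34 (0.11), Mrpl27 (0.10) and Mrpl3 (0.10) on the positive side. On the negative side they were Mrpl38 (-0.18), Mrpl32 (-0.15), Mrpl53 (-0.12), Mrpl50 (-0.12), Mrps15 (-0.10), Mrpl20 (-0.10) and Mrpl18 (-0.09). Without vehicle 4 h replicate 1, Mrpl38 turned to 0.02.

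The difference between the 4 h and 1 h effects was called for no member by edgeR, DESeq2 or limma-voom, beside 4.07%, 5.39% and 6.72% of all genes. At an unadjusted p under 0.05 there was 1 member, Mrpl38 (-0.46, adjusted p = 0.269, edgeR), beside 16.9% of all genes. The next smallest p was that of Mrpl49, and the one after it that of Mrps18a (-0.19, adjusted p = 0.338).

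The comparison between times in MitoCDNB mice held most of the calls of the family. In vehicle mice 1 of 77 members rose from 1 h to 4 h (1.3%), beside 5.44% of all genes called in either direction and 2.99% called upward. This was Mrpl4, a large subunit protein with a bacterial counterpart. At an unadjusted p under 0.05, 10 members were higher and 1 was lower (14.3%, beside 19.6% of all genes). In MitoCDNB mice 10 of 77 members were called (13%), 8 higher and 2 lower, beside 28.5% of all genes, 15.1% higher and 13.4% lower. At an unadjusted p under 0.05 there were 15 members (19.5%, beside 39% of all genes). With 1 h replicates 1 to 3 alone, or 4 to 6 alone, 5 members were called, and Mrps2 and Mrpl4 were called in both. The 2 time comparisons rest on different mice, and those in MitoCDNB mice hold the 1 h and 4 h effects of MitoCDNB together with time. By the library numbers in the labels, numbers 1 to 12 are all 4 h and 13 to 24 all 1 h. Hours after injection therefore cannot be told apart from the library series in either time comparison. Summed brain markers were 13.4 to 23.4 CPM at 4 h, beside 17.1 to 26.6 CPM at 1 h. The median log2 difference of members was 0.03 in vehicle and 0.04 in MitoCDNB mice, beside -0.0019 and -0.0096 for all genes. Markers of other cells also moved between times in MitoCDNB mice. Of the neutrophil markers, 3 of 3 tested were lower, and the 8 summed to 7.20 to 14.95 CPM at 1 h and 0.649 to 1.83 CPM at 4 h, with none at 0 in either group. Of 9 sinusoidal endothelial markers, 5 were lower and 1 higher (summed 289.6 to 368.9 and 269.8 to 315 CPM, none at 0). Of 9 Kupffer cell markers, all 9 log2 differences were negative and 1 was called (summed 267.6 to 334.9 and 196.4 to 290.2 CPM, none at 0). Their part in the time comparison was not tested.

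Mrpl4 was at 17.8, 19.2, 17.7, 18.7, 19.98 and 19.2 CPM in vehicle 1 h and at 21.4, 22.7, 21.8, 23.4, 21.2 and 23.6 CPM in vehicle 4 h. The ranges lay apart, as they did upward for 1.3% of all genes (log2 difference 0.25, SE 0.0601, adjusted p = 0.0135, edgeR). With MitoCDNB it was 17.1, 20.97, 21.03, 19.99, 20.4 and 17.9 CPM at 1 h and 26.96, 23.4, 23.4, 25.96, 24.1 and 26.8 CPM at 4 h, again with no overlap (log2 difference 0.36, SE 0.0601, adjusted p = 7.40e-05, edgeR). The vehicle call was lost within replicates 1 to 3 of 1 h (log2 difference 0.29, adjusted p = 0.07505, edgeR) and within replicates 4 to 6 (0.21, adjusted p = 0.132).

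Mrps2, a small subunit protein with a bacterial counterpart, was at 15.2, 16.5, 17.5, 16.6, 16.8 and 17.8 CPM in MitoCDNB 1 h and at 19.9, 19.1, 23.1, 20.9, 21.5 and 23.001 CPM in MitoCDNB 4 h. All 4 h libraries were above all 1 h libraries (log2 difference 0.34, SE 0.0753, adjusted p = 0.00122, edgeR); ranges lay apart upward for 7% of all genes. In vehicle mice Mrps2 went from 16.1 ± 2.16 to 19.03 ± 0.971 CPM (SD, n = 6), which did not pass the test (adjusted p = 0.0644, edgeR). Mrps6, the counterpart of bacterial S6, went the other way. It was 6.47, 5.70, 6.21, 4.57, 5.53 and 5.76 CPM in MitoCDNB 1 h and 4.87, 3.75, 3.97, 4.31, 4.45 and 4.38 CPM in MitoCDNB 4 h, and the groups overlapped through 1 library of each. Its log2 difference was -0.41 (SE 0.106, adjusted p = 0.00447, edgeR). Its exons share 159 bp with Slc5a3 on the same strand, a myo-inositol transporter that gave -0.37 in this comparison (adjusted p = 0.196); the part of shared reads was not tested.

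**Figure D4:**
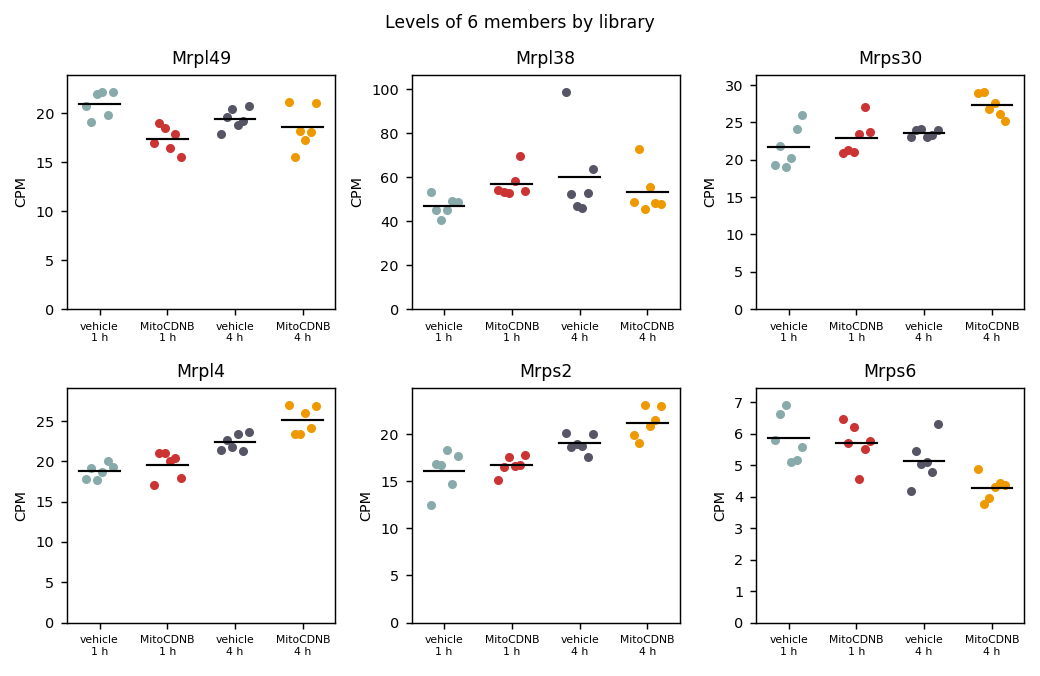
Points are libraries, lines are group means, and the axis is CPM from 0 for Mrpl49, Mrpl38, Mrps30, Mrpl4, Mrps2 and Mrps6. Mrpl49 is lower in MitoCDNB than vehicle at 1 h, Mrps30 is higher in MitoCDNB than vehicle at 4 h, and Mrpl4 and Mrps2 are higher at 4 h than at 1 h in MitoCDNB mice.

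The other named members called between times in MitoCDNB mice gave smaller or noisier changes. Mrps23, a small subunit protein, rose from 13.7 ± 1.16 to 16.8 ± 1.29 CPM (SD, n = 6; log2 difference 0.29, adjusted p = 0.00213, edgeR). Mrpl19, the counterpart of bacterial L19, rose from 7.70 ± 0.845 to 10.2 ± 1.28 CPM (0.41, adjusted p = 0.00346, edgeR). Of 5450 exonic bp of Mrpl19, 1962 overlap Gcfc2 on the opposite strand, and Gcfc2 rose by 0.81 in the same comparison (adjusted p = 4.93e-05, edgeR). Mrps30 rose from 22.9 ± 2.35 to 27.3 ± 1.57 CPM (0.25, adjusted p = 0.0121, edgeR). Mrps34 rose from 35.9 ± 1.21 to 41.1 ± 3.22 CPM (0.20, adjusted p = 0.0161, edgeR). It shares 1309 of 2064 exonic bp with Mapk8ip3, a kinase scaffold on the opposite strand that rose by 0.34 (adjusted p = 0.00197, edgeR). It also shares 763 bp with Nme3 on the same strand, a nucleoside diphosphate kinase gene at -0.04 (adjusted p = 0.800). Mrpl50, a large subunit protein without a bacterial counterpart, fell from 31.8 ± 3.01 to 27.6 ± 3.19 CPM (-0.20, adjusted p = 0.0366, edgeR). The Mrpl50 call was kept in 3 of 12 fits that each left out 1 library, with adjusted p up to 0.0895. Of 15 alternative fits or thresholds, calls in this comparison were lost in 2 for Mrps23, 1 for Mrpl19 and 3 for Mrps30. They were lost in 4 for Mrps34, 7 for Mrpl50 and 2 for Mrps6. The part of the neighbours' reads was not tested. A further 2 members, Mrpl47 (0.34) and Mrpl3 (0.20), were called upward and were chosen for naming after their values were seen.

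The factors that build and serve this ribosome are separate genes, and their counts are given beside those of its proteins. At 1 h, 5 of 29 tested assembly factors of the mitoribosome (34 symbols listed, some of them older names of one gene) were called, 1 higher and 4 lower, beside 6.57% of all genes. Ddx28, an RNA helicase of large subunit assembly, was 7.94 ± 0.526 CPM with vehicle and 11.1 ± 1.35 CPM with MitoCDNB (SD, n = 6; log2 fold change 0.48, adjusted p = 0.00934, edgeR). Ybey, an endoribonuclease, fell from 2.87 ± 0.436 to 1.70 ± 0.447 CPM (-0.75, adjusted p = 0.00132, edgeR). Mrm1, a methyltransferase of the large ribosomal RNA, fell from 3.11 ± 0.552 to 2.01 ± 0.455 CPM (-0.62, adjusted p = 0.0145, edgeR). Mettl17, of small subunit assembly, fell from 7.43 ± 1.06 to 5.21 ± 0.627 CPM (-0.51, adjusted p = 0.0209, edgeR). The last was Rpusd4, a pseudouridine synthase, at -0.40 (adjusted p = 0.0435, edgeR). These calls fell to 1 (Ybey) within replicates 1 to 3, to 0 within replicates 4 to 6, and to 3 without vehicle 1 h replicate 4 or without MitoCDNB 1 h replicate 2.

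At 4 h edgeR called no assembly factor (3 had an unadjusted p under 0.05, Mpv17l2, Mettl17 and Rnmtl1, beside 14.3% of all genes). The effect at 4 h was higher than that at 1 h for 3 of 29, beside 4.07% of all genes called in either direction: Mrm1 (0.93, adjusted p = 0.0129, edgeR), Mettl17 (0.83, 0.0101) and Ybey (0.81, 0.020017). Each of these calls was kept in 24 of 24 fits that left out 1 library. Over 15 alternative fits or thresholds the count ranged from 0 to 6. The calls were lost in 3 (Mrm1), 2 (Mettl17) and 4 (Ybey) of the 15. In MitoCDNB mice 10 of 29 rose from 1 h to 4 h and none fell, beside 28.5% of all genes called and 15.1% called upward. They were led by Rnmtl1 (0.92), Mrm1 (1.07), Mettl17 (0.92) and Ybey (0.86), all with adjusted p of 7.95e-05 or less (edgeR); Rnmtl1, another ribosomal RNA methyltransferase, was also the 1 assembly factor that rose in vehicle mice (0.40, adjusted p = 0.0367, edgeR), a call kept in 5 of 12 fits without 1 library (adjusted p up to 0.0964).

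Genes for transcription and RNA processing of mitochondrial DNA were called in 8 of 19 cases from 1 h to 4 h in MitoCDNB mice, all higher, beside 15.1% of all genes called upward. Fastkd1 (0.94), Tbrg4 (0.46), both RNA-binding proteins of the FASTK family, Polrmt, the mitochondrial RNA polymerase (0.46), and Fastkd5 (0.46) led them, with adjusted p of 0.00082 or less (edgeR). In vehicle mice 4 of 19 rose: Fastkd1 (0.47), Tbrg4 (0.26), Fastkd3 (0.42) and Tefm (0.47), beside 2.99% of all genes called upward. Without 1 library in turn, Fastkd3 and Tefm were each kept in 4 of 12 fits (adjusted p up to 0.0944 and 0.1247). At 1 h, MitoCDNB lowered 1 of 19, Fastkd5 (-0.46, adjusted p = 0.00305, edgeR), beside 3.87% of all genes, and at 4 h edgeR called none (4 had an unadjusted p under 0.05: Polrmt, Mterf2, Fastkd1 and Tbrg4). The interaction was called for Fastkd5 (0.48) and Fastkd1 (0.47), beside 4.07% of all genes. Each of these 2 calls was kept in 6 of 24 fits that left out 1 library, with adjusted p up to 0.0865 and 0.0979, and the count ranged from 2 to 0. Within either 1 h replicate set the 1 h and interaction calls of this list were 0 and the vehicle calls 1, and within replicates 1 to 3 the calls in MitoCDNB mice were 5. Of 17 aminoacyl-tRNA synthetases, 1, Hars2, was lower at 1 h (-0.25, adjusted p = 0.0388, edgeR), beside 3.87% of all genes. This call was kept in 3 of 12 fits without 1 library of 1 h (log2 fold change -0.28 to -0.23, adjusted p up to 0.0886). Mars2 (0.58) and Pars2 (0.70) rose with time in vehicle mice, and Rars2 (0.61), Mars2 (0.92) and Pars2 (0.78) in MitoCDNB mice, against 2.99% and 15.1% of all genes called upward. The vehicle call of Pars2 was kept in 5 of 12 fits without 1 library (adjusted p up to 0.09695). Of 19 translation factors, Qrsl1 (0.51), Mtif3 (0.25) and Mtrf1l (0.36) rose with time in MitoCDNB mice, 3 of 19 beside 15.1% of all genes, and none was called in another comparison by edgeR (at an unadjusted p under 0.05, 2 at 1 h, Tsfm and Taco1, and 2 at 4 h, Mtif2 and Oxa1l).

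Among 12 regulators of nuclear genes for mitochondria, MitoCDNB lowered 1, Creb1, a cyclic AMP-responsive factor, at 1 h (-0.38, adjusted p = 0.00449, edgeR), beside 3.87% of all genes. The Creb1 call was lost in 3 of 16 alternative fits or thresholds. At 4 h edgeR called none of the 12 regulators, beside 0.824% of all genes (Esrra, 1 of 12, had an unadjusted p under 0.05, beside 14.3%). Between times 1 of the 12 was higher and 1 lower in vehicle and in MitoCDNB mice, beside 5.44% and 28.5% of all genes called. The difference between the 4 h and 1 h effects was called for 1 of 12, beside 4.07% of all genes. Esrra, a nuclear receptor that drives genes of oxidative metabolism, rose with time in vehicle mice (0.53, adjusted p = 0.00562, edgeR) and in MitoCDNB mice (1.12, adjusted p = 7.05e-08, edgeR). The interaction of Esrra was called (0.60, adjusted p = 0.0260, edgeR). Of 24 fits that left out 1 library, 22 kept this call. It was lost without MitoCDNB 1 h replicate 2 or MitoCDNB 4 h replicate 3 (adjusted p up to 0.0532). It was also lost in 4 of 15 alternative fits or thresholds. Ppargc1a, the coactivator that works with Esrra, fell with time in vehicle and in MitoCDNB mice (-0.92, adjusted p = 0.0417, and -1.01, adjusted p = 0.00503, edgeR). The vehicle call of Ppargc1a was kept in 2 of 12 fits without 1 library, with adjusted p up to 0.0833. Nrf1, Yy1 and Gabpa, a subunit of GABP, were called in none of the 5 comparisons. Of 5 mitoribosomal proteins with other symbols, 1, Ptcd3, rose with time in MitoCDNB mice (0.20, adjusted p = 0.0338, edgeR), beside 15.1% of all genes called upward. This call was kept in 5 of 12 fits without 1 library (adjusted p up to 0.0848).

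Cytosolic ribosomal proteins and respiratory chain subunits were read the same way. At 1 h edgeR called none of 76 cytosolic ribosomal proteins (Rpl12 and Rpl29, that is 2, had an unadjusted p under 0.05). Their median log2 fold change was 0.09, with 72 positive values, beside 35 among the 77 mitoribosomal members and 7016 among all 13833 genes. The genes share libraries, so their signs are not independent results. Their median log2 deviation was 0.154, 0.0958, 0.231, -0.0302, -0.0889 and 0.0423 in MitoCDNB 1 h replicates 1 to 6. In vehicle 1 h it was 0.115, -0.0779, 0.0300, -0.104, -0.0467 and -0.0322. At 4 h 0 of 76 were called and 13 values were positive. Between times in MitoCDNB mice 4 of 76 were called, 1 higher and 3 lower (Rpl37rt higher, and Rps27a, Rpl22 and Rpl5 lower, named after their values were seen), with a median log2 difference of -0.10, beside 28.5% of all genes called. Of 77 respiratory chain and ATP synthase subunits none was called at 1 h or 4 h by edgeR (0 and 1 at an unadjusted p under 0.05), beside 6.57% and 0.824% of all genes. In MitoCDNB mice 4 of the 77 (Ndufs7, Ndufa12, Ndufa8 and Atp5a1, named after their values were seen) rose with time, beside 15.1% of all genes called upward.

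**Figure D5:**
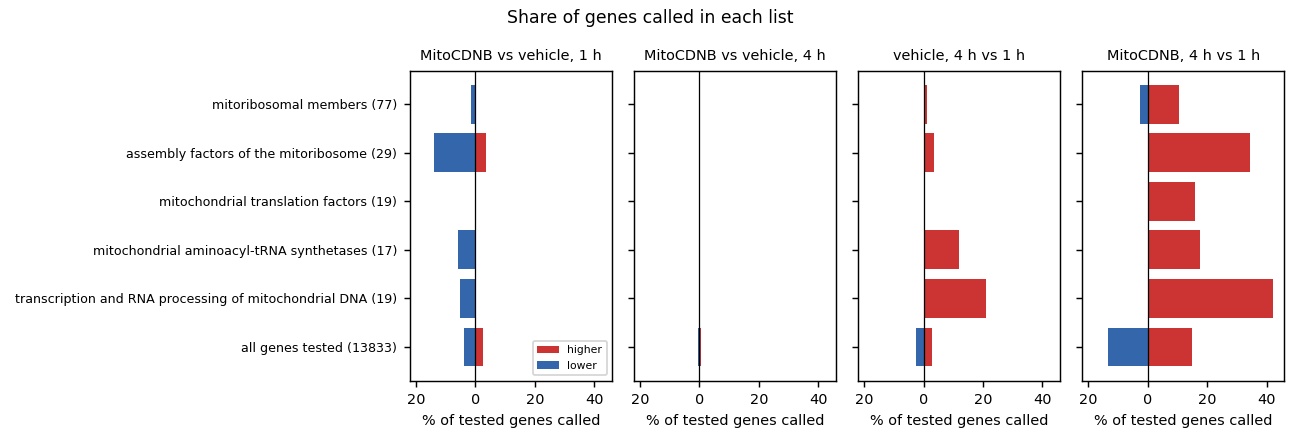
Bars are the percent of tested genes in each list (number in brackets) called higher (red, to the right) or lower (blue, to the left) in 4 comparisons, from 0. The members sit at or below the bar of all genes in all 4 panels, while assembly factors and genes for mitochondrial DNA expression reach further to the right in MitoCDNB mice between 1 h and 4 h.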

How the data were processed

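For each of 24 libraries the deposited table gives unnormalized counts by gene symbol, which the authors made with CASAVA 1.8.4, Trim Galore, HISAT2 and DESeq2 on build mm10, per the submitters' processing notes; the NEBNext Ultra RNA kit was used for libraries, per the labels' protocols. How reads were counted, with which annotation and strand setting, is not given in the sources used here. Replicates are mice, 6 per group, per the labels' protocols.

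The filter filterByExpr (count at least 10, total at least 15) kept 13833 of 24421 genes and took out 0.0306% of counts. After TMM scaling, all 24 libraries entered 1 negative binomial fit by group, tested by robust quasi-likelihood in edgeR 4.0.16 (R 4.3.3; two-sided; Benjamini-Hochberg adjustment over all genes tested, called under 0.05). There were 5 comparisons: the MitoCDNB effect at 1 h and at 4 h, the difference between these effects, and 4 h against 1 h within vehicle and within MitoCDNB mice. SEs and 95% intervals come from the fold change and F statistic. Levels are CPM on scaled library sizes, and totals ranged from 25132737 to 37231025. The lowest count of any member was 110. The SDs and ranges of CPM hold counting noise together with the spread between mice.

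The rule named the 8 largest rises and falls at 1 h and at 4 h, up to 12 called members per direction there and up to 6 in the other comparisons (or the 3 smallest p), the 5 highest and lowest members per kb of transcript, members with a known role, and up to 4 called genes per list by p. The members and lists were chosen with earlier results of these data known. The labels do not pair samples by replicate number. Of 12 pairs with the same number at the same time, 5 had deviations correlated over 0.1 (range -0.25 to 0.36). In 3 of the 12 the correlation was higher than with any other number. These correlations cannot decide whether mice of the same number were handled together.

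Alternatives were other scalings, filters and tests (DESeq2 1.42.0, limma-voom 3.58.1), fits of fewer groups, a replicate block, a stricter threshold, the 1 h replicate sets, and leaving out libraries. The same alternatives for the pathway lists were added after seeing the data. Gene models were GENCODE M21, and promoters RefSeq sequences (GRCm38.p6). Protein sequences were not used here.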

Additional observations from a re-analysis of the deposited data

Results flagged for a closer look

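In each group of 6, the highest and lowest library were compared with the others by Dixon's criterion, for 30 members named by the rule on fold changes and calls and for 3 summed levels (all members, Mrpl and Mrps), and 7 of 132 groups held a library far from the rest, about the share of 1 in 20 that chance gives. In all, 3 of the 7 concerned Mrpl38: it was 69.9 CPM in MitoCDNB 1 h replicate 5 (others 52.9 to 58.3), 98.8 CPM in vehicle 4 h replicate 1 (others 45.995 to 63.8) and 73.1 CPM in MitoCDNB 4 h replicate 2 (others 45.5 to 55.7). The last 2 libraries are those that stood apart on the second principal component. Mrpl3 was low in vehicle 1 h replicate 1, at 11.6 CPM (others 13.7 to 14.9), and Mrpl52 was high there, at 24.1 CPM (others 19.9 to 21.2). Mrps15 was low in MitoCDNB 1 h replicate 5, at 12.02 CPM (others 13.4 to 14.3). Mrps34 was low in vehicle 4 h replicate 3, at 33.5 CPM (others 38.1 to 40.3).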

How the results depend on the processing

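Scaling by total counts alone moved the median of members to -0.0858 at 1 h, 0.0696 at 4 h, 0.16 for the difference of effects, -0.0358 between times in vehicle and 0.13 in MitoCDNB mice; members called were then 0 at 1 h, 0 between times in vehicle and 3 in MitoCDNB mice, and Mrpl52 at 1 h turned to -0.0048. Members called at 1 h were also 0 with a replicate block, under an adjusted p of 0.01, and within replicates 1 to 3 (median 0.0576, with Mrpl15 at 0.0736) or 4 to 6 of 1 h, and 2 with only the groups compared or without the 2 libraries of 4 h that stood apart. Between times in vehicle mice 0 were called at 0.01 and within either set, and 2 with DESeq2 or a term for the sets; in MitoCDNB mice 5 were called at 0.01 and within either set. Leaving out 1 library at a time gave 0 to 1 called at 1 h, 0 to 0 at 4 h, 1 to 2 between times in vehicle (2 without vehicle 1 h replicate 4) and 7 to 12 in MitoCDNB mice; Mrpl38 at 4 h ranged from -0.289 (without MitoCDNB 4 h replicate 2) to 0.0219, without vehicle 4 h replicate 1. The same replicate numbers are not a pairing by the labels; with the replicate block Mrpl49 at 1 h gave a log2 fold change of -0.27 and an adjusted p of 0.0513 (edgeR), and no member was called at 4 h or in the difference. No paired analysis was possible between times because the blocks lie within each time. The cause of these shifts was not tested. Counts of the pathway lists at 1 h moved too (assembly factors 5, from 0 to 6 over the alternatives). The lowest count of any member was 110, and how far depth limits the precision of the lowest members was not tested.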
